A study of Xenopus laevis with 6 samples.

Results

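Transcript abundance was described in intact Xenopus laevis embryos at late gastrula, Nieuwkoop-Faber stage 12.5. The 3 libraries of intact embryos, out of 6 libraries in the series, were taken by their label alone, and each of the 45090 genes in the deposited count table was placed by its mean level and its spread over those 3 libraries. The embryos were wild-type and untreated, had been fertilized in vitro and dejellied in cysteine, and were lysed whole for total RNA. Libraries were made with a stranded mRNA kit. The other 3 libraries of the series came from embryos separated into single blastomeres at the first cleavage and are not used here. The labels call the libraries biological replicates but give neither the parents nor the number of embryos behind each, so the spread below is that between these 3 samples. With a single group there is no contrast, and every value below is a description with no test.

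Gastrulation turns the blastula into an embryo with 3 germ layers. Nodal, FGF and Wnt signals induce mesoderm and endoderm in the vegetal and equatorial cells, and the dorsal organizer secretes antagonists of BMP and Wnt that set the dorsal-ventral axis. By late gastrula the ectoderm is divided into a neural plate, its border and a non-neural part that forms the epidermis. Maternal transcripts loaded in the egg are still being replaced by zygotic ones at this time. Xenopus laevis is allotetraploid, and most genes are present as an L and an S copy (homeologs), which the table lists apart.

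The libraries held 24509421, 29284864 and 20069300 counts in replicates 1, 2 and 3. Levels are given as counts per 1000000 of the library's counts (CPM), in the order of replicates 1, 2 and 3, and 1 count was worth 0.0341 to 0.0498 CPM. CPM is a share of counts and is not divided by transcript length, so an order of genes by CPM is an order of counts and not of molecules. In whole embryos, fewer cells of a type and less RNA per cell cannot be told apart. A gene was called detected at a mean of at least 1 CPM, which was met by 18934 genes, or 42% of those listed. Among the 17500 genes that carry a symbol, 11669 were detected (66.7%), against 26.3% of the 27590 gene models without one. Pairwise correlations of log2(CPM + 0.5) over the detected genes were 0.945 for replicates 1 and 2, 0.961 for 1 and 3, and 0.956 for 2 and 3. These are correlations across genes, which are not independent replicates.

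Counts were concentrated in few genes. The most abundant gene held 0.882% of all counts, the first 10 held 5.92%, the first 100 held 22.4% and the first 1000 held 53.1%. There were 98 genes at 1000 CPM or more, 2038 at 100 or more and 10344 at 10 or more, and the median of the detected genes was 12.3 CPM. Of the 100 genes with the highest means, 81 were among the 100 highest in each of the 3 libraries. Only 47 of these 100 carry a symbol, and the share of counts in genes with a symbol was 60.2% to 60.9% per library, so about 4 counts in 10 belong to gene models that the table does not name. The first place was held in all 3 libraries by such a model, Xelaev18029462m, at 8177, 10384 and 7893 CPM. Another, Xelaev18004064m, was at rank 3, with 7093, 6066 and 6143 CPM.

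Among named genes, both copies of cirbp, which encodes the cold-inducible RNA-binding protein, led the list. The L copy stood at 6360, 7191 and 7341 CPM, with a mean of 6964 ± 529 CPM (SD, n = 3) and rank 2. The S copy stood at 5730, 6166 and 6924 CPM, at rank 4. Both were lowest in replicate 1, and neither copy left the first 5 places in any library. The constitutive heat shock cognate 70 chaperone gene hspa8 followed, its S copy at 5015, 6641 and 5660 CPM (rank 5) and its L copy at 3959, 5829 and 4780 CPM (rank 9). Replicate 2 was the highest for both copies. The other named genes in the first 25 were hmgb3.L, an HMG-box chromatin protein gene (3848, 2827 and 3562 CPM), anp32c.S, of the acidic nuclear phosphoprotein family (3282, 2688 and 3494 CPM), and srsf2.L, a splicing factor gene (2771, 2650 and 2622 CPM). Replicate 2 was the lowest for hmgb3.L and anp32c.S, while srsf2.L was nearly level. The cytosolic chaperone gene hsp90ab1.S stood at 2225, 3596 and 2161 CPM and so moved from place 14 in replicate 2 to place 38 in replicate 3. The last of the 25, tpt1.L, encoding the translationally controlled tumor protein, was the steadiest of the named genes in this set relative to its level, at 2525, 2642 and 2582 CPM (SD 58.4, n = 3).

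**Figure D1:**
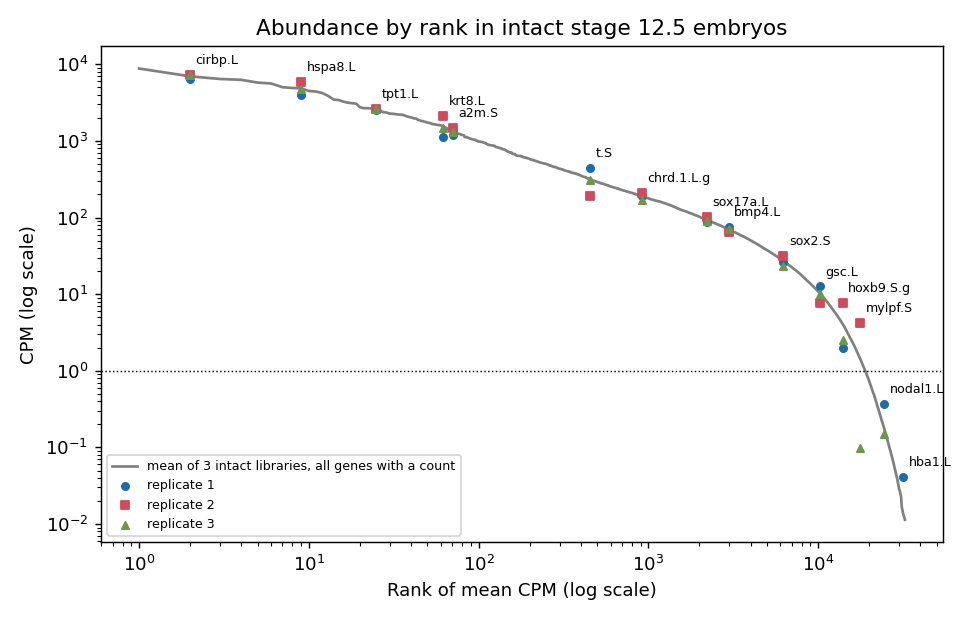
Mean CPM of the 3 intact libraries against the rank of the gene, both on log scales, with the 3 library values of 15 genes as points; the dotted line is 1 CPM. The curve falls from 8818 CPM at rank 1 to 1 CPM near rank 18934, and points at 0 CPM cannot be drawn on a log axis, which leaves 1 point for hba1.L.

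Genes that any cell uses filled the upper ranks unevenly. Of 46 symbols of RNA-binding and chromatin proteins 22 were matched, and the unmatched, among them ybx1, ncl and npm1, are not analysed here. All 38 genes matched were detected, beside 66.7% of all genes with a symbol. Their median was 674 CPM, and 14 of them were among the 100 highest of all genes. They held 4.57% of all counts. Their median coefficient of variation (CV, the SD as a percent of the mean over the 3 libraries) was 9.84%, against 21.5% over all detected genes. The CV falls with abundance, and all genes of 300 to 1000 CPM had a median CV of 12.6%. Behind cirbp, hmgb3 and srsf2 in this list came hnrnpab.L (2176, 2036 and 2323 CPM) and hnrnpa1.S (2056, 2237 and 1862 CPM), which encode nuclear proteins that package and process pre-mRNA. The 36 chaperone genes, from 20 of 32 symbols matched, were all detected and held 2.00% of counts, led by hspa8 and hsp90ab1. The 2 members of at least 5 CPM with the largest ratio of highest to lowest library were hsp90aa1.1.L and dnajb1.L. The first stood at 7.92, 83.8 and 19.6 CPM and the second at 5.63, 14.2 and 6.28 CPM. Both were highest in replicate 2. The endoplasmic reticulum chaperone gene hspa5.S was instead high in replicate 3, at 400, 326 and 558 CPM, and its SD was 118 CPM.

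Of 42 symbols of translation factors 26 were matched, and the unmatched, among them eef1a1, eif4a1 and eif5b, are not analysed here. The 48 genes matched were detected in 44 cases (91.7%, beside 66.7% of all genes with a symbol). They had a median of 173 CPM and held 1.55% of counts. None of the 44 differed by a ratio of 2 or more between its highest and lowest library, a spread called wide here, which 4499 detected genes had (23.8%). The wide share also falls with abundance, and it was 4.05% over all genes of 100 to 300 CPM. After tpt1.L the matched genes were led by pabpc1.S, the cytoplasmic poly(A)-binding protein gene, at 1535, 1838 and 1596 CPM. Next was eef2.1.L, an elongation factor gene, at 746, 1447 and 1176 CPM. It came close to the wide limit, with replicate 1 the lowest. The 62 genes found by a symbol of a cytoplasmic ribosomal protein had a lower median, 126 CPM. Of these, 58 were detected (93.5%), none of them wide. None of the 62 was among the 100 highest of all genes. However, 53 of those 100 carry no symbol and could not be placed in this set. Their highest member was rpl3.L at 571, 769 and 546 CPM. The 58 detected members were lowest in replicate 3 in 47 cases, beside 26.7% of all detected genes, and their summed level was 9610, 10276 and 8037 CPM.

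Of 104 nuclear genes of oxidative phosphorylation 98 were detected (94.2%, beside 66.7% of all genes with a symbol). The median of the 104 was 14.9 CPM. The ATP synthase beta subunit gene atp5b.S led at 332, 537 and 431 CPM, followed by the cytochrome c gene cycs.S at 410, 237 and 389 CPM. Replicate 2 was the highest for the first and the lowest for the second. Only 7 of 19 symbols of glycolytic enzymes were matched, and those unmatched, among them gapdh, pgk1, eno1, pkm and ldha, are not analysed here. Of the 14 genes matched 12 were detected (85.7%), all below 100 CPM. The hexokinase gene hk2.S was the highest of these at 39.2, 63.2 and 51.9 CPM, and the triosephosphate isomerase gene tpi1.L varied most among the first 3, at 54.8, 28.6 and 14.4 CPM.

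**Figure D2:**
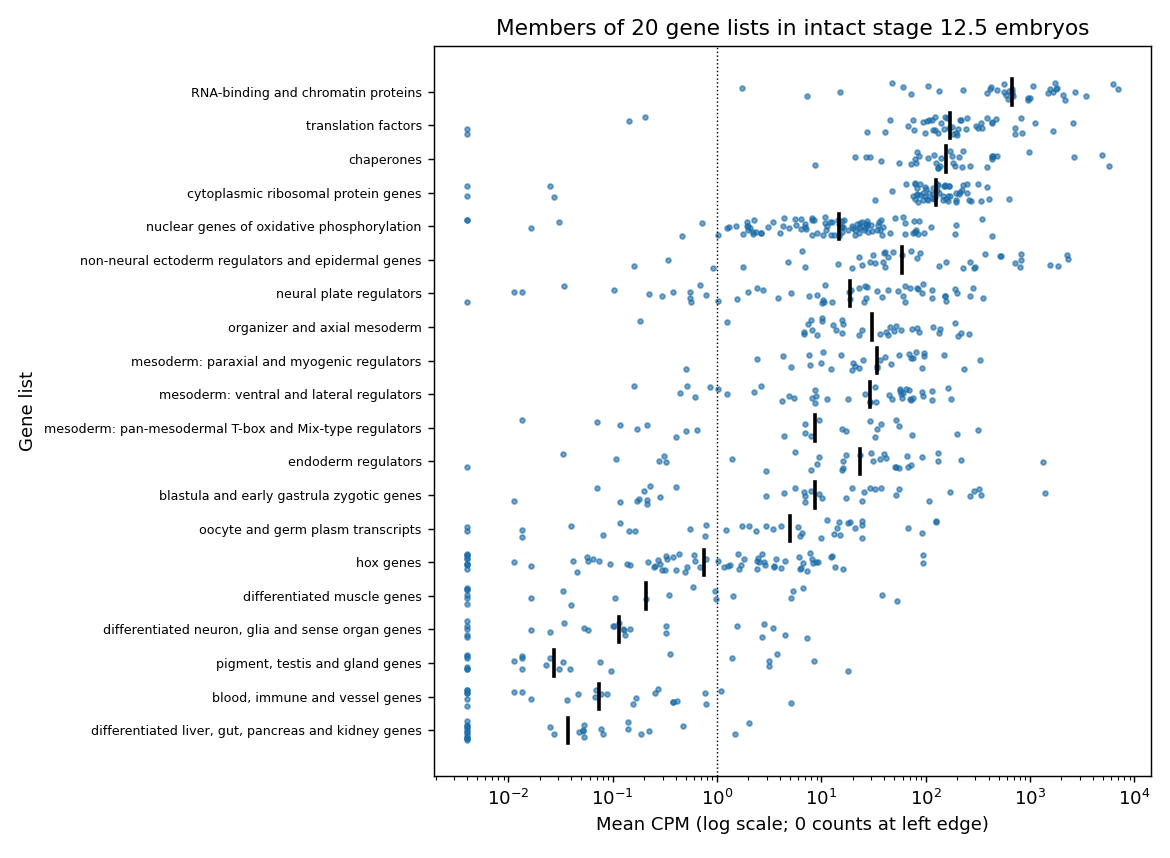
Mean CPM over the 3 intact libraries (log scale) of each member of 20 gene lists, 1 point a gene, with the list's median as a black bar; genes with 0 counts sit at the left edge and the dotted line is 1 CPM. Medians run from 674 CPM for RNA-binding and chromatin genes to 0.0276 CPM for pigment, testis and gland genes.

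Regulators and markers of the germ layers were mostly present at moderate levels. Of 272 genes matched to the germ layer lists together, 230 were detected (84.6%, beside 66.7% of all genes with a symbol). List symbols that were not matched, among them vegt, tbx6, otx2, tfap2a, gata2 and snai2, are not analysed here. Of the 272, 178 reached 10 CPM and 46 reached 100 CPM. They held 2.66% of all counts. Of the 230, 72 were wide (31.3%, beside 23.8% of all detected genes). The median of the 230 was 35.5 CPM, and of all genes of 30 to 100 CPM 9.52% were wide. The lists share some genes, so their counts do not add up to these totals.

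Pan-mesodermal regulators were led by the T-box gene brachyury, listed as t. The S copy stood at 444, 192 and 306 CPM, with a mean of 314 ± 126 CPM (SD, n = 3). The L copy stood at 232, 153 and 209 CPM. For both, replicate 1 was the highest and replicate 2 the lowest. The same place for replicate 2 was found in gdf3.S, a gene for a TGF-beta family ligand, at 87.3, 45.9 and 87.0 CPM, and in wnt8a.L, the ligand of ventrolateral mesoderm, at 66.9, 36.9 and 61.7 CPM. The T-box gene eomes was below brachyury, its S copy at 42.0, 15.1 and 30.05 CPM. Of 24 genes in the list 16 were detected (66.7%, the same as the 66.7% of all genes with a symbol). Of these 16, 14 were lowest in replicate 2, beside 37.1% of all detected genes. All 24 had a count, and 20 of them were lowest there, beside 35.1% of all genes with a count. None of the 24 was highest in replicate 2. Their summed level was 1157, 595 and 939 CPM. The FGF ligand genes fgf8.L (42.1, 29.8 and 31.5 CPM) and fgf20.L (9.51, 5.94 and 5.33 CPM) were present, while fgf4.L was under 1 CPM in every library.

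Paraxial and myogenic genes, those of the mesoderm that forms somites and muscle, were detected in 30 of 31 cases. That is 96.8%, beside 66.7% of all genes with a symbol. The protocadherin gene pcdh8.2.L led at 321, 377 and 301 CPM, ahead of its S copy at 173, 328 and 190 CPM. Of the Delta ligand genes of Notch signalling, dll1.S was nearly level at 86.2, 90.5 and 97.0 CPM, while dlc.S was wide at 2.61, 8.64 and 4.19 CPM. The muscle determination gene myod1.S stood at 54.8, 130 and 59.1 CPM and its L copy at 16.5, 42.1 and 16.1 CPM. Replicate 2 thus stood above the other two by a factor of more than 2 for both copies, while the other two were alike. The related gene myf5.L, at 70.4, 90.3 and 57.3 CPM, and the presomitic gene msgn1.L, at 60.5, 81.0 and 64.8 CPM, had the same highest library with less spread. Their S copies did not, with myf5.S at 41.2, 35.3 and 33.3 CPM and msgn1.S at 63.4, 59.7 and 42.95 CPM, both highest in replicate 1. Of the 30 detected members 15 were highest in replicate 2, beside 34.4% of all detected genes. Over all 31 members, each with a count, 16 were highest there, beside 34.2% of all genes with a count. The widest member was tcf15.L, a basic helix-loop-helix gene of forming somites, at 1.84, 25.03 and 2.69 CPM, and meox2.S, a somite homeobox gene, stood at 4.12, 23.0 and 9.92 CPM.

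Ventral and lateral genes, many of which respond to BMP signals, were detected in 36 of 41 cases. That is 87.8%, beside 66.7% of all genes with a symbol. The homeobox gene msx1.L led at 169, 190 and 159 CPM. Next came bambi.L, which encodes a membrane inhibitor of BMP signalling, at 151, 167 and 175 CPM. The ligand gene bmp4 itself stood at 138, 105 and 103 CPM for the S copy and at 76.1, 64.3 and 70.8 CPM for the L copy. The highest and lowest library differed by less than a ratio of 2 for each of these copies. The ventral homeobox gene ventx1.2.S stood at 82.9, 76.2 and 56.4 CPM, and sizzled (szl.L), whose product inhibits the proteases that cleave chordin, at 41.3, 71.4 and 55.7 CPM. Some members lay lower. The ETS factor gene spib.L stood at 0.98, 22.4 and 3.44 CPM, and the homeobox gene isl1.S at 0.86, 8.61 and 3.24 CPM, both wide. The lateral plate gene hand2.S stayed near the detection level, at 0.73, 1.16 and 0.70 CPM. The blood regulator tal1.L had counts only in replicate 2, at 0.48 CPM. Of the 36 detected members 24 were highest in replicate 2, beside 34.4% of all detected genes. Members such as spib.L can pass the detection level through that library. Over all 41 members, each with a count, 27 were highest there, beside 34.2% of all genes with a count.

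The organizer and axial mesoderm list had 33 of its 34 genes detected (97.1%, beside 66.7% of all genes with a symbol). Of the 33, 22 were highest in replicate 1, beside 32.6% of all detected genes. The lowest library was replicate 2 for 14 of the 33 and replicate 3 for 15. The list summed to 2483, 1660 and 1907 CPM. Its highest member was foxa4.L, a forkhead gene of the notochord and floor plate, at 347, 216 and 221 CPM. Among secreted antagonists, chordin was steady, with chrd.1.L.g at 193, 208 and 169 CPM. Noggin had far fewer counts, with nog.L at 7.79, 7.38 and 5.48 CPM, and follistatin was little above it, with fst.L at 9.59, 14.4 and 14.4 CPM. The cerberus gene cer1.S, whose product binds Nodal, BMP and Wnt ligands, stood at 284, 117 and 248 CPM, and the BMP family gene admp.S at 119, 40.8 and 62.4 CPM. Both were lowest in replicate 2. The Wnt antagonist gene dkk1.S had another order, at 19.6, 7.85 and 2.74 CPM, with replicate 3 the lowest. Among the organizer homeobox genes, lhx1.S stood at 59.9, 25.4 and 46.6 CPM and not.S, of the notochord, at 56.2, 41.3 and 37.5 CPM. Goosecoid, which marks the early organizer and later the prechordal plate, was the lowest of the 3, with gsc.L at 12.6, 7.75 and 10.1 CPM and gsc.S at 9.14, 6.66 and 4.63 CPM. Sonic hedgehog, the signal of notochord and floor plate, was present at 4.2, 9.80 and 10.3 CPM for shh.S.

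Endodermal regulators included genes that were nearly level across the libraries. The SRY-box gene sox17a.S, the narrowest of the list from 5 CPM, stood at 131, 129 and 129 CPM. Its CV was 1.14%, below the 1.79% that counting alone gives. The gene sox17b.1.S stood at 68.0, 65.0 and 68.1 CPM. Yet the L copies spread more, with sox17a.L at 87.1, 101 and 91.0 CPM and sox17b.1.L at 40.0, 65.2 and 47.8 CPM. The GATA factor gene gata6.S, at 84.6, 148 and 161 CPM, stood above gata4.L, at 72.4, 57.8 and 86.2 CPM, in each library. Their ranges over the libraries overlap. The other copies were closer, with means of 66.5 CPM for gata6.L, below the 72.1 CPM of gata4.L, and 56.0 CPM for gata4.S. The highest member of the list was a2m.S, encoding the protease inhibitor alpha-2-macroglobulin, at 1183, 1485 and 1296 CPM (rank 71), while a2m.L had a mean of 0.03 CPM, with counts in replicate 3 alone. The Mix-type genes of early mesendoderm were lower, with mixer.L at 67.9, 25.4 and 62.6 CPM and mix1.L at 15.6, 3.52 and 9.17 CPM, both lowest in replicate 2. The later pancreatic gene pdx1 was below 1 CPM in both copies, and darmin.L had 0 counts in all 3 libraries. Of 33 members 27 were detected (81.8%, beside 66.7% of all genes with a symbol). Of the 27, 10 were wide (37.0%, beside 23.8% of all detected genes).

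**Figure D3:**
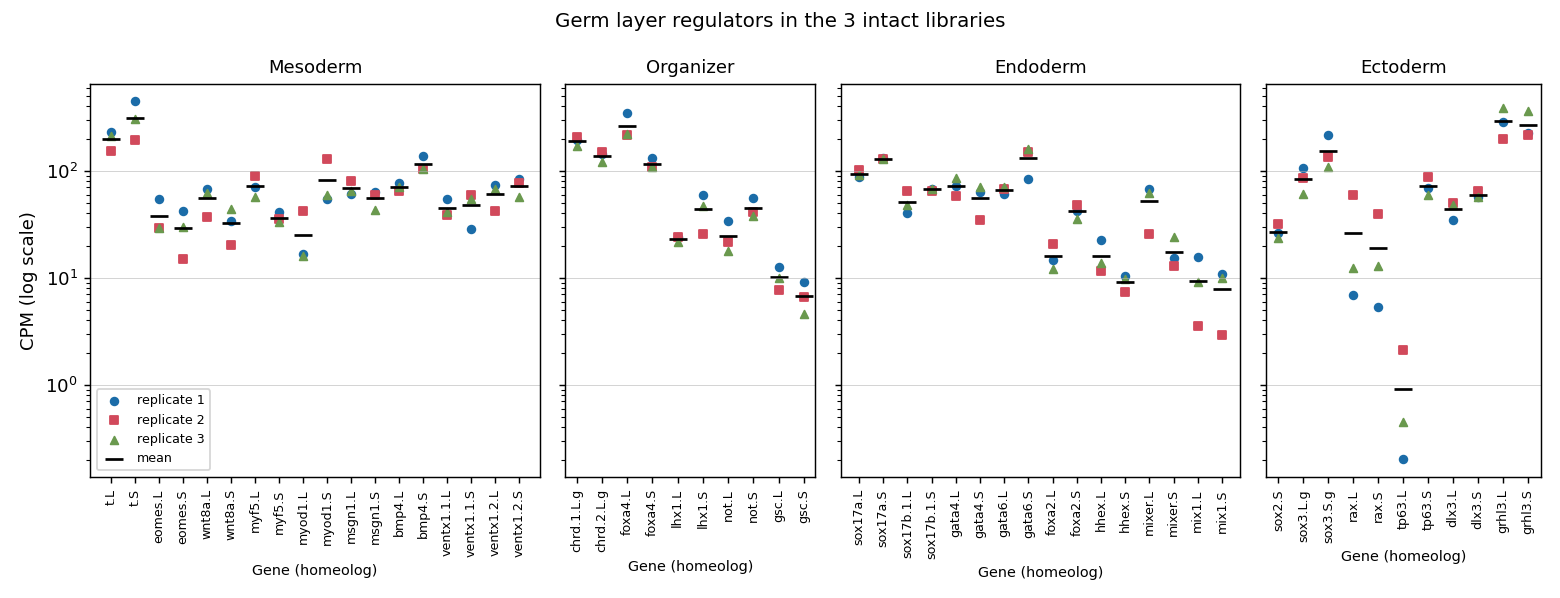
CPM (log scale) of regulators of mesoderm, organizer, endoderm and ectoderm in each of the 3 intact libraries, with the mean as a black dash. The points of sox17a.S lie on each other near 129 CPM, and those of rax.L run from 6.90 to 60.0 CPM.

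Neural plate regulators were detected in 44 of 57 cases (77.2%, beside 66.7% of all genes with a symbol). Posterior caudal-type genes were among the highest, with cdx1.S at 374, 344 and 354 CPM and cdx4.L at 237, 299 and 264 CPM. Geminin (gmnn.S), a regulator of replication licensing and neural fate, stood at 404, 156 and 299 CPM, with replicate 2 the lowest. Among early neural genes, sox3.S.g stood at 215, 134 and 109 CPM and sox2.S at 26.1, 31.5 and 23.6 CPM. Anterior genes ranged from level to wide. The forebrain gene fezf2.S stood at 10.3, 10.4 and 11.1 CPM. In the eye field, rax.L stood at 6.90, 60.0 and 12.4 CPM and rax.S at 5.3, 39.4 and 12.8 CPM, pax6.S.g at 1.51, 24.6 and 4.04 CPM, and six3.S at 18.6, 56.2 and 28.1 CPM. These 4 eye field copies had the same order, lowest in replicate 1 and highest in replicate 2. However, rax.L and pax6.S.g are the 2 widest of the list and six3.S was named after its values were seen. Over the whole list, 23 of the 44 detected members were highest in replicate 2, beside 34.4% of all detected genes. Among the 56 members with a count it was 29, beside 34.2% of all genes with a count. Regional and later neural genes were scarce. The hindbrain gene egr2.L had a mean of 0.78 CPM, the midbrain-hindbrain gene en2.L had 0.04 CPM in replicate 1 and no counts in the other two, and pou3f4.L was at 0 in all 3 libraries.

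Genes of the neural border and neural crest were detected in 23 of 28 cases (82.1%, beside 66.7% of all genes with a symbol). Of the 23, 4 were wide (17.4%, beside 23.8% of all detected genes). The median of the 23 was 13.4 CPM, and of all genes of 10 to 30 CPM 17.6% were wide. After msx1.L, snai1.S, a zinc finger gene of crest and mesoderm, stood at 85.9, 125 and 77.6 CPM, and zic1.S at 133, 76.1 and 75.6 CPM. Crest specifiers lay lower. The gene sox9.S stood at 11.7, 14.3 and 7.57 CPM, sox8.L at 5.18, 17.3 and 13.8 CPM, and foxd3.L at 6.41, 4.64 and 2.94 CPM.

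Non-neural ectoderm supplied the most counts of any germ layer list, 1.47% of the total, and the largest part came from keratins. The keratin genes krt5.7.S (2174, 2615 and 2194 CPM, rank 29), krt.S (2213, 2367 and 2236 CPM, rank 30) and krt8.L (1129, 2104 and 1461 CPM, rank 62) were among its highest members. The keratin krt12.L was the wide one among them, at 14.9, 75.8 and 29.4 CPM, beside krt12.S at 560, 1085 and 767 CPM. Replicate 2 was the highest library for all of these keratin copies. Junction genes followed, with the desmosomal dsp.L at 471, 495 and 599 CPM and the claudin gene cldn4.L at 459, 525 and 549 CPM. Among the regulators, the grainyhead-like gene grhl3.L stood at 286, 199 and 382 CPM, the basal epidermal gene tp63.S at 68.8, 87.9 and 58.9 CPM, and dlx3.S at 56.6, 64.9 and 56.7 CPM. The 2 tp63 copies were unlike, since tp63.L had 0.20, 2.12 and 0.45 CPM. The gene itln1.L, which encodes a lectin secreted by the epidermis, stood at 40.7, 185 and 39.7 CPM, with replicates 1 and 3 nearly equal. Of the 41 genes 38 were detected (92.7%, beside 66.7% of all genes with a symbol). The summed level of the list was 13116, 16482 and 14561 CPM.

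In the list of multiciliated, ionocyte and secretory cells 18 of 26 genes were detected (69.2%, beside 66.7% of all genes with a symbol), none at 100 CPM. The ciliary transcription factor gene rfx2.S stood at 70.5, 58.8 and 69.5 CPM and foxj1.S, the switch gene for motile cilia, at 32.6, 25.6 and 41.0 CPM. The multiciliated cell gene ccno.L stood at 15.8, 20.4 and 18.8 CPM. The ionocyte regulator foxi1.S was wider, at 23.1, 37.3 and 13.7 CPM. Of ionocyte products, the bicarbonate transporter gene slc4a4.S stood at 2.16, 5.87 and 1.15 CPM and the carbonic anhydrase gene ca12.L at 9.91, 8.47 and 6.83 CPM.

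Of 38 genes in the list of oocyte and germ plasm transcripts 26 were detected (68.4%), close to the 66.7% of all genes with a symbol, and 2 reached 100 CPM. The germ cell helicase gene ddx4.L (vasa) stood at 117, 130 and 127 CPM and was level across libraries, and so was the germ plasm gene dazl.L at 23.5, 22.7 and 27.0 CPM. The oocyte linker histone gene, listed as h1foo.S, stood at 174, 49.5 and 149 CPM and the oocyte growth factor gene gdf9.L at 24.6, 7.14 and 24.4 CPM. These 2 were low in replicate 2 by a factor of about 3 or more against each of the other two. The egg coat gene zp2.L stood at 86.7, 87.9 and 101 CPM. The genes eef1a2.L and bmp15.S of this list were at 0 in all 3 libraries.

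Genes of the blastula and early gastrula covered a wide range of levels, with 7 of 36 at 100 CPM or more and 11 below 1 CPM. The POU factor gene pou5f3.1.L.g, of the Oct4 family of pluripotency factors, was the highest at 1499, 1300 and 1401 CPM (rank 66), and pou5f3.2.L stood at 458, 170 and 350 CPM. The zygotic gene gs17.L, at 168, 45.5 and 301 CPM, was the widest of the members above 100 CPM. In contrast, some of the matched Nodal ligand genes of the blastula were close to the counting floor, 3 counts, which was 0.102 to 0.149 CPM per library. Among them nodal1.L had a mean of 0.17 CPM, nodal2.L 0.21 CPM and nodal6.L 0.18 CPM, while nodal.L stood at 7.51, 4.99 and 8.57 CPM. Only 19 of 33 symbols of this list were matched, and the unmatched, among them nodal3, nodal4 and nodal5, are not analysed here. The maternal ectoderm gene foxi2 was below 1 CPM in both copies. Of 36 members 25 were detected (69.4%, beside 66.7% of all genes with a symbol). Of these 25, 18 were lowest in replicate 2, beside 37.1% of all detected genes. Over all 36 members, each with a count, 24 were lowest there, beside 35.1% of all genes with a count. This list shares members with the pan-mesodermal one.

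Hox genes, which pattern the body axis from head to tail, were detected in part. Of 74 listed 36 were detected (48.6%), a lower share than the 66.7% of all genes with a symbol. In 9 of the 74 there were 0 counts in all 3 libraries, which held for 6.98% of all genes with a symbol. The level of 10 CPM was reached by 6. The paralog group 1 gene hoxd1 was apart from the rest, its L copy at 83.0, 112 and 87.9 CPM and its S copy at 90.8, 106 and 83.5 CPM. After it came hoxb1.S at 7.1, 32.1 and 9.62 CPM. The most variable named member was hoxd3.L at 0.86, 10.1 and 2.44 CPM. Replicate 2 was the highest for each of these genes. Because a gene high in replicate 2 alone could pass the detection level through it, the count was made over all members with a count, and 58 of 65 were highest in replicate 2, beside 34.2% of all genes with a count. The summed level of the hox genes was 295, 525 and 303 CPM.

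**Figure D4:**
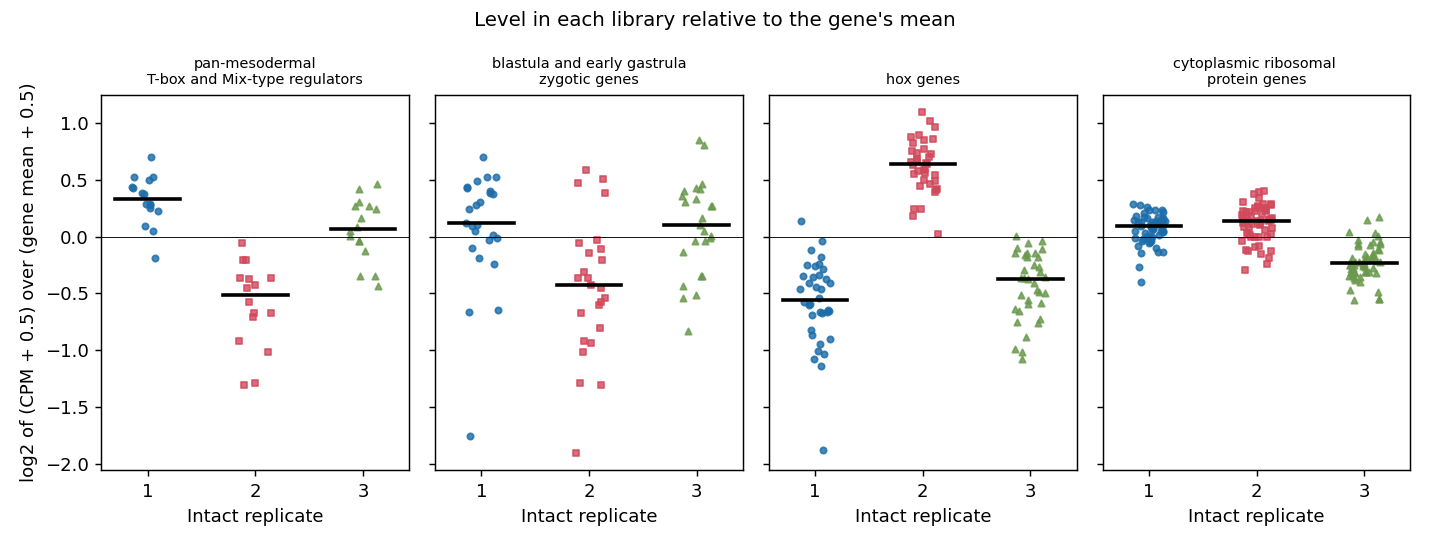
log2 of (CPM + 0.5) over (gene mean + 0.5) in each intact replicate for the detected members of 4 gene lists, 1 point a gene, with the list's median as a black bar. Hox genes lie above 0 in replicate 2, pan-mesodermal genes lie below 0 there, and ribosomal protein genes lie lowest in replicate 3, where the summed level was 8037 CPM.

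Of the genes of differentiated cells that were matched, most were below detection. Symbols matched were 11 of 26 for muscle, 14 of 30 for neuron and sense organ, and 15 of 26 for pigment, testis and gland. They were 15 of 33 for liver, gut, pancreas and kidney, and 15 of 33 for blood and vessel. The unmatched, among them ttn, des, alb and hbb, are not analysed here. Of 124 genes in the 5 lists for muscle, neuron and sense organ, liver, gut, pancreas and kidney, blood and vessel, and pigment, testis and gland, 22 were detected (17.7%, beside 66.7% of all genes with a symbol), and 35 had 0 counts in all 3 libraries. Together they summed to 104, 324 and 144 CPM. Nearly all of the excess of replicate 2 lay in the muscle list, at 35.5, 253 and 48.9 CPM, and there in alpha-cardiac actin, the main actin of embryonic muscle. The copy actc1.S stood at 14.6, 120 and 22.8 CPM and actc1.L at 4.69, 105 and 5.33 CPM. The fast muscle light chain gene mylpf.S had 0, 4.17 and 0.10 CPM and so was detected through replicate 2 alone. The creatine kinase gene ckm.L, in contrast, stood at 3.39, 6.32 and 6.23 CPM.

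Of the other differentiated cells, the neuronal list had 6 of 25 matched genes detected. The myelin basic protein gene mbp.S led these at 7.79, 5.43 and 8.62 CPM. The list symbols gad1 and rcvrn were not matched, and the entries gad1.2.L and rcvrn.1.L stand outside these counts. Of these entries, gad1.2.L stood far above mbp.S, at 983, 1081 and 1258 CPM (rank 86). The neuronal tubulin gene tubb3.S stood at 2.49, 4.03 and 1.84 CPM. In the list for liver, gut, pancreas and kidney 2 of 28 were detected and 12 were at 0. One of the 2, the somatostatin gene sst.L, stood at 5.71, 0.38 and 0 CPM. The blood and vessel list had 2 of 26 detected, led by the endothelial receptor gene tek.S at 5.55, 1.71 and 8.12 CPM. The globin genes that were matched lay at or under the counting floor or little above it, with hba1.S at 0 in all 3 libraries and hbd.L at 0.37, 0.27 and 0.50 CPM. Most globin symbols of the list, among them hba2, hba3, hbb1 and hbb2, were not matched. The list for pigment, testis and gland had 6 of 24 detected. Its melanin synthesis genes were uneven, with tyrp1.L at 14.8, 15.02 and 24.0 CPM but tyrp1.S and dct.S at 0 in all 3 libraries, while gland genes such as the thyroglobulin gene tg.L and the pituitary hormone gene pomc.L, were at 0.

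Below detection over the whole table, 11733 genes (26.02%) had 0 counts in all 3 libraries and 14423 more had counts but a mean under 1 CPM. All of these together held 0.318% of the counts. Genes with a symbol were at 0 in 6.98% of cases and gene models without one in 38.1%. A count of 0 in a library allows a level of up to 0.122, 0.102 and 0.149 CPM in replicates 1, 2 and 3, for counting error only. Both copies of a homeolog pair were listed under 1 symbol in 6831 cases. Both were detected in 3824 pairs, a single copy in 1241 and neither in 1766. Reads from near-identical copies could be split by the authors' counting in a way the table does not show, so a low value of a single copy is uncertain.

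Spread between the 3 libraries fell with abundance but did not fall to counting error. The median CV was 33.7% for genes of 1 to 3 CPM, 20.3% for 10 to 30 CPM and 10.7% at 1000 CPM or more. In the same classes counting alone gave 15.4%, 4.94% and 0.488%. The share of wide genes went from 47.1% in the lowest class to 2.04% in the highest. The common biological CV, fitted by edgeR over 19972 genes, was 30.3%. Among the 4499 wide genes, the library lying farthest from the other two was replicate 2 in 1926 cases, replicate 1 in 1574 and replicate 3 in 999. Replicate 2 was the highest in 975 of its cases and the lowest in 951. Replicate 1 was the highest in 533 of its cases and the lowest in 1041. For replicate 3 these were 618 and 381.

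**Figure D5:**
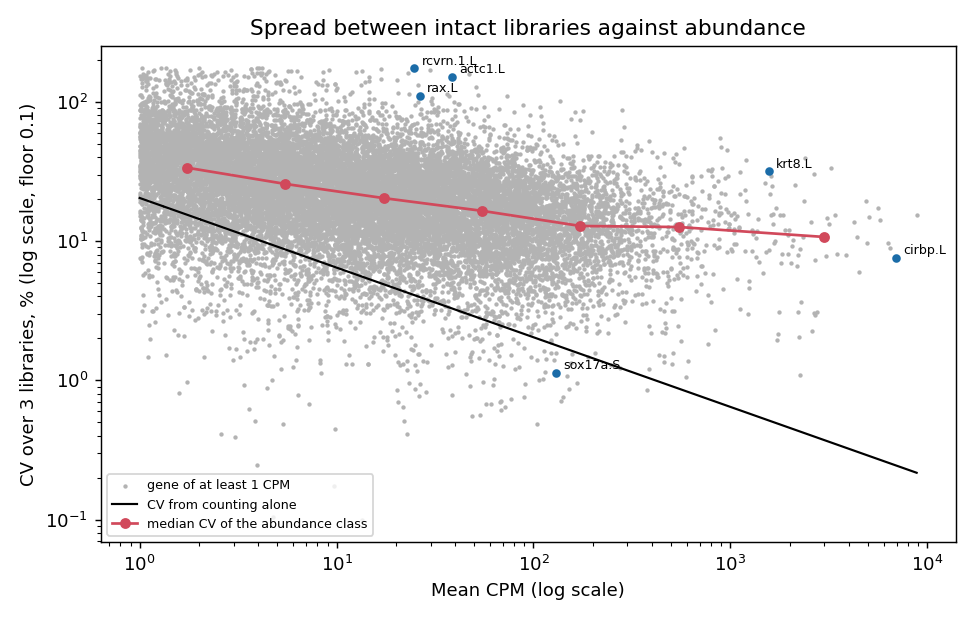
CV over the 3 intact libraries (%, log scale) against mean CPM (log scale) for the 18934 detected genes, with the CV that counting alone gives as a black line and the median of each abundance class in red. The medians fall from 33.7% to 10.7% and stay above the counting line.

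The named genes of at least 10 CPM with the largest CV were of several kinds. Counts of the recoverin gene rcvrn.1.L, for a calcium-binding protein of photoreceptors, came from replicate 3 alone, with 0, 0 and 1496 counts (0, 0 and 74.5 CPM). The calcium-binding protein gene scgn.L was alike, at 0.29, 0.10 and 50.3 CPM. The thioredoxin gene txn2.L was also high in replicate 3, at 3.47, 2.87 and 33.5 CPM. A second set was high in replicate 2, among them genes of muscle, with the filamin gene flnc.S at 9.87, 64.5 and 2.94 CPM and the myosin chaperone gene unc45b.S at 6.73, 54.2 and 9.47 CPM. Both actc1 copies, rax.L and pax6.S.g, given above, complete that set. The nuclear export receptor gene xpo4.S was high in replicate 1, at 126, 16.6 and 10.1 CPM. At 5 CPM or more in 1 library with no count in the other two there were 5 genes, and 4 had the reverse, no count in 1 library and at least 5 CPM in the other two. The 2 of these 9 with a gene name were rcvrn.1.L and the sulfotransferase gene ndst4.L (9.75, 7.99 and 0 CPM), which was named after its values were seen.

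At the other end, the 10 named genes of at least 10 CPM with the smallest CV lay at 0.0790% to 0.699%, below what counting alone gives for their depth. They were the ubiquitin ligase gene syvn1.S (13.4 CPM in each library), bccip.S (104, 105 and 104 CPM), pxn.L, pola2.L, prpf38b.S, cables2.L, vps37b.L, zbtb2.S, sugt1.L and tiparp.S. In the class of 10 to 30 CPM 4.61% of genes had a CV under their counting value. The share was 2.15% for 30 to 100 CPM, where most of the 10 genes lie, and 1.35% for 100 to 300 CPM. All these CVs hold for scaling by library totals. Another scaling, TMM, gave factors of 0.979, 0.990 and 1.03 for replicates 1, 2 and 3. CVs this small would change under it, and the 10 genes need not be the same. Replicate 2 was mostly the lowest for pan-mesodermal genes, but more often the highest for paraxial and ventral ones than over all detected genes. What its place in these and in the hox, muscle and early gene lists comes from was not tested. The same holds for its place in the eye field copies named above.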

How the data were processed

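Per the file headers, the authors deposited raw read counts per gene, and per the submitters' processing notes TopHat2, HTSeq and DESeq were used. For the genome build, annotation and counting strand, the sources used here give nothing. The columns of the 3 intact libraries were mapped by name. The other 3 columns and the authors' comparison table were not used. CPM was computed from library totals with pandas 2.3.3 (Python 3.11.15). The common biological CV came from edgeR 4.0.16 (R 4.3.3) with an intercept-only design, after a check on simulated data. DESeq2 1.42.0 gave alternative size factors. With 1 group, no test was made. Total counts were 20069300 to 29284864 per library, and counting limits cover counting error only.

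Named genes were the 25 of highest mean CPM (unnamed models counted, at most 2 of them named), per list the 3 highest and, from 5 CPM, the 2 widest and the narrowest, the 10 largest and 10 smallest CVs from 10 CPM, and the main germ layer regulators. Not every gene that met this rule is printed above, and the list of cytoskeleton genes is left out. Other list members, such as hspa5.S and hoxd3.L, were named after their values were seen. Members and lists were chosen with earlier results of these data known. Symbols of a list not found in the table are not analysed here. The alternatives were other scalings, detection levels, summed homeologs and leaving out a library.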

Additional observations from a re-analysis of the deposited data

How the results depend on the processing

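The 3 libraries limit every spread given. The count of 4499 wide genes fell to between 1895 and 2979 when 1 library was left out (2283 without replicate 1, 1895 without replicate 2 and 2979 without replicate 3), as a range over fewer samples is narrower. It was 2027 among genes of at least 5 CPM and 16439 among all genes with a count. The median CV of 21.5% was 15.7% to 19.5% without 1 library and 34.3% with no filter. The common biological CV of 30.3% was 26.6% to 33.7% without 1 library and 36.9% with no filter. The first 100 genes held 22.4% of counts, or 25.3% with homeologs summed. The 18934 detected genes became 13134 at 5 CPM, 21227 at 0.5 CPM, 17195 when every library had to reach 1 CPM and 15256 with homeologs summed. Detected germ layer genes were 205 to 242 in place of 230. With TMM or DESeq2 scaling, 572 of 572 named gene values stayed within 1 SD. Little movement was possible, since genes with 0 counts cannot move and the TMM factors ran from 0.979 to 1.03. This check does not cover the CV of a single gene or its order of libraries. Wide genes numbered 4461 with TMM scaling and 4484 with DESeq2 size factors. Per-length levels were not run, as no transcript lengths were at hand. No paired analysis was possible because a single group was described and no test was made.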
